A study of Mus musculus with 18 samples.

Results

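The levels of 10 genes of the WNT pathway were followed through mouse gastrulation in single-cell RNA sequencing data: the ligands Wnt3, Wnt3a, Wnt5a and Wnt5b, the secreted enhancer Rspo3, the feedback and target genes Axin2 and Sp5, the transcription factors Lef1 and Tcf7l1, and the secreted antagonist Frzb. They were taken by name, 10 of the 22997 nuclear genes named in the count files, and each had a row in at least 1 file. The embryos were C57BL/6 wild type, with no allele or agent added, and whole embryos were labelled as the tissue. At E6.75 (embryonic day), 6 libraries of 96 hand-picked cells were made with CEL-Seq2 from embryos whose extraembryonic part had been cut away and which were dissociated singly. At E7.5, 12 libraries of 96 cells sorted by flow cytometry were made with mCEL-Seq2, a smaller and automated form, from embryos trimmed below the chorion so that extraembryonic mesoderm stayed, pooled over 1 or 2 litters. Stage, way of collecting, protocol version and dissection thus changed together and cannot be told apart. A library held an unknown number of embryos, and nothing states that libraries came from separate litters, so the p-values measure the spread between libraries. The design text states 576 and 1172 cells; barcodes in use numbered 576 and 1152, and 543 and 429 of them held at least 2000 nuclear transcripts and were kept.

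WNT ligands bind Frizzled and LRP receptors on the cell surface, which spares beta-catenin from destruction and lets it act with TCF and LEF factors on target genes. In the mouse embryo, Wnt3 is needed for the primitive streak to form, and Wnt3a later for the paraxial mesoderm and tail, while Wnt5a and Wnt5b are best known for signalling that does not need beta-catenin. R-spondins such as Rspo3 keep WNT receptors on the membrane, Axin2 rebuilds the complex that destroys beta-catenin, Frzb traps ligand outside the cell, and Tcf7l1 represses TCF targets where no signal is received.

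Sp5 and Axin2, 2 direct WNT targets, are shown with the 250 bases before their start sites because they were the members called in T-only cells at E7.5, a class defined further on by T, itself a WNT target. Both sequences are from RefSeq on GRCm38.p6 and read 5′ to 3′ on the plus strand, at chr2:70474673-70474922 for Sp5 and chr11:108920099-108920348 for Axin2. Capitals mark the letters CTTTGAT, of the kind bound by TCF and LEF factors, or the same with its last 2 letters each A or T, on either strand; no other motif was searched.
Sp5: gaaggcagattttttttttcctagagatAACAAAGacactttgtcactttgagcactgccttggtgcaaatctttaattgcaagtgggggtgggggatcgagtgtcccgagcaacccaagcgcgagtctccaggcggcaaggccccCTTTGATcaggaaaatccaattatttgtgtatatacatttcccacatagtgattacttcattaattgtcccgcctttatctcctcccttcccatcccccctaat
Axin2: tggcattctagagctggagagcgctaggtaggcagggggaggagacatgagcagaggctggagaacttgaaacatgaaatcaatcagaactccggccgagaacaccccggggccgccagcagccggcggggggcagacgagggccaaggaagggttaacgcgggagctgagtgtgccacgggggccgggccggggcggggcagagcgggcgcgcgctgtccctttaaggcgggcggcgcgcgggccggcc
Sp5 held 2 matches, which began 222 and 104 bases before the start, and the Axin2 stretch held none. Windows of 300 bases (250 before and 50 after each start) were given for 8 of the 10 genes, with 13 windows in all, and 4 of these held a match: those of Sp5 and Wnt3, 1 of 3 for Wnt5b and 1 of 4 for Lef1. Among all 32851 windows of that length in the table, 5544 held a match, or 16.9%. A match is a run of letters only, and its absence says nothing about where a factor binds.

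The depth of a library limits what can be seen of these genes. Kept cells per library numbered 85 to 96 in the E6.75 libraries and 15 to 71 in the E7.5 ones, with 2918240 to 5486857 and 488326 to 2615333 transcripts, and E7.5 library 5, with 0 kept cells, gave no value. The same 96 barcodes were used in 56 of the 153 pairs of libraries. E6.75 libraries 2_13 and 2_14 had the 2 highest levels of that stage in Wnt3, Wnt5a, Wnt5b, Axin2, Sp5 and Frzb, but not in Rspo3, Lef1 or Tcf7l1. They held 15 and 11 of the 29 Mesp1 cells of that stage. Called values of E6.75 and between stages are therefore also given without both, or, for Mesp1 cells, where 1 library would be left, without each. Levels are given in CPM, the transcripts of a gene in the summed kept cells of a library scaled to a common total of nuclear transcripts; in such sums, fewer expressing cells and less RNA per cell cannot be told apart.

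Between the stages, the ligands Wnt3a, Wnt5a and Wnt5b, the enhancer Rspo3, the targets Axin2 and Sp5, Lef1 and Frzb were higher at E7.5, and Tcf7l1 was lower (edgeR quasi-likelihood test on library sums, Benjamini-Hochberg adjusted p under 0.05). These were 9 of the 10 members. The background is large: 38.8% of the 9998 genes tested passed in either direction. The median log2 difference, E7.5 minus E6.75, was 1.71 over the 10 members and 0.03 over all genes tested.

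Wnt3 (chr11:103774150-103817957, plus strand, GRCm38 in this and the following gene positions), the ligand of the early streak, was at 12.2, 11.96, 10.2, 13.7, 45.9 and 47.8 CPM in the E6.75 libraries 1_10, 1_11, 2_9, 2_12, 2_13 and 2_14. At E7.5 it ran from 2.24 through a median of 13.8 to 39.1 CPM in 11 libraries. The 2 highest values of either stage were thus those of libraries 2_13 and 2_14, and the ranges overlapped. The log2 difference of -0.85 (SE 0.43) did not pass (edgeR adjusted p = 0.123); it was 0.13 (adjusted p = 0.852) without those 2 libraries, and -1.11 (adjusted p = 0.0411) without E7.5 library 6.

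Wnt3a (chr11:59248033-59290752, minus strand), the ligand of the later streak, was at 0 in 3 E6.75 libraries and at 0.34, 0.18 and 0.78 CPM in libraries 2_12, 2_13 and 2_14. At E7.5 its lowest value was 0, in 2 libraries, its median 6.08 and its highest 16.8 CPM, and 9 of 11 libraries lay above all 6 of E6.75. Its log2 difference was 4.70 (SE 0.67, edgeR adjusted p = 1.21e-05), the largest fitted among the 10 members, and 5.72 without libraries 2_13 and 2_14. Leaving those out left 1 transcript at E6.75, so the size of the difference rests on counts near 0. Without E7.5 library 1 or 2 Wnt3a did not pass the filter on low counts and was not tested.

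Wnt5a (chr14:28504750-28527448, plus strand) was at 1.99, 1.17, 3.03, 2.40, 6.56 and 7.38 CPM in the E6.75 libraries, in the order given for Wnt3, and between 12.8 and 100.3 CPM at E7.5, with a median of 32.8. Every E7.5 library lay above every E6.75 library, and the log2 difference was 3.20 (SE 0.40, edgeR adjusted p = 2.76e-06). Without libraries 2_13 and 2_14 it was 4.05. Wnt5b (chr6:119432531-119544347, minus strand), its close relative, ran from 2.33 to 6.01 CPM at E6.75 and from 2.54 to 28.7 CPM at E7.5, with overlap; its log2 difference was 1.48 (SE 0.36, edgeR adjusted p = 0.00266) and 1.91 without libraries 2_13 and 2_14. Wnt5b overlaps Fbxl14 on the other strand, and nothing states that counting used strand.

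Rspo3 (chr10:29452416-29535867, minus strand) was at 5.63, 5.25, 16.3, 2.74, 11.5 and 6.80 CPM at E6.75, the highest in library 2_9, and ran from 35.5 through 70.8 to 180.1 CPM at E7.5. The ranges did not overlap, and the log2 difference was 3.36 (SE 0.37, edgeR adjusted p = 5.63e-07), or 3.42 without libraries 2_13 and 2_14. Stage sums hold all kept cells, also those marked further on as visceral endoderm or extraembryonic ectoderm. In 2_9, 5, 15, 2 and 0 of the 59 Rspo3 transcripts lay in cells later classed as without T, Mesp1 or Foxa2, Foxa2, T only and Mesp1. The rest lay in marked cells, 10 of them visceral endoderm-marked, or in cells with both Mesp1 and Foxa2. Their part in the stage difference was not tested. Ranges of libraries that do not overlap were found for 4 of the 10 members, Wnt5a, Rspo3, Lef1 and Frzb, all higher at E7.5; among all genes tested the share was 8.24%, in either direction.

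Among targets, Sp5 (chr2:70474923-70477729, plus strand), a zinc finger factor, was at 2.32, 1.17, 12.7, 5.14, 40.3 and 41.5 CPM at E6.75. It ran from 27.9 through 69.7 to 112 CPM at E7.5, so that only libraries 2_13 and 2_14 reached into the E7.5 range. Its log2 difference was 1.95 (SE 0.48, edgeR adjusted p = 0.00290) and 3.62 without those 2 libraries. Axin2 (chr11:108920349-108950783, plus strand) was at 25.8, 20.1, 26.2, 19.5, 43.4 and 39.4 CPM at E6.75 and ran from 25.7 through 44.5 to 72.1 CPM at E7.5. Its ranges overlapped, and its log2 difference of 0.65 (SE 0.20, edgeR adjusted p = 0.0141) no longer passed with the 4 E6.75 libraries of label prefix 2 alone (0.52, adjusted p = 0.0937); without 2_13 and 2_14 it was 0.97 (adjusted p = 0.00203).

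Lef1 (chr3:131110471-131224356, plus strand), which carries beta-catenin to DNA and is a WNT target itself, ran from 24.2 to 57.8 CPM at E6.75 and from 58.3 to 167.9 CPM at E7.5. The lowest E7.5 library therefore lay just above the highest E6.75 library, and the log2 difference was 1.22 (SE 0.23, edgeR adjusted p = 0.000271), or 1.36 without libraries 2_13 and 2_14. Frzb (chr2:80411970-80447625, minus strand) was at 5.63, 3.50, 6.89, 2.40, 23.9 and 20.2 CPM at E6.75 and between 26.7 and 95.4 CPM at E7.5. Its log2 difference was 2.27 (SE 0.38, edgeR adjusted p = 8.16e-05) and 3.46 without libraries 2_13 and 2_14. Tcf7l1 (chr6:72626378-72789254, minus strand), the repressor, went the other way: 462, 333, 272, 458, 269.9 and 281.1 CPM at E6.75 against 122.7 to 281.9 CPM at E7.5, where 10 of 11 libraries lay below all 6 of E6.75. The log2 difference was -0.83 (SE 0.17, edgeR adjusted p = 0.000457), or -1.001 without libraries 2_13 and 2_14. Lef1 overlaps Gm43352 on the other strand, and Tcf7l1 overlaps Gm15401 there, and reads of such partners cannot be told apart without strand. On the same strand Lef1 overlaps Gm42449, and Tcf7l1 overlaps Gm37969, Gm38114 and Gm37736, all with rows of their own, so counts of these genes may be split between rows whatever the use of strand.

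**Figure D1:**
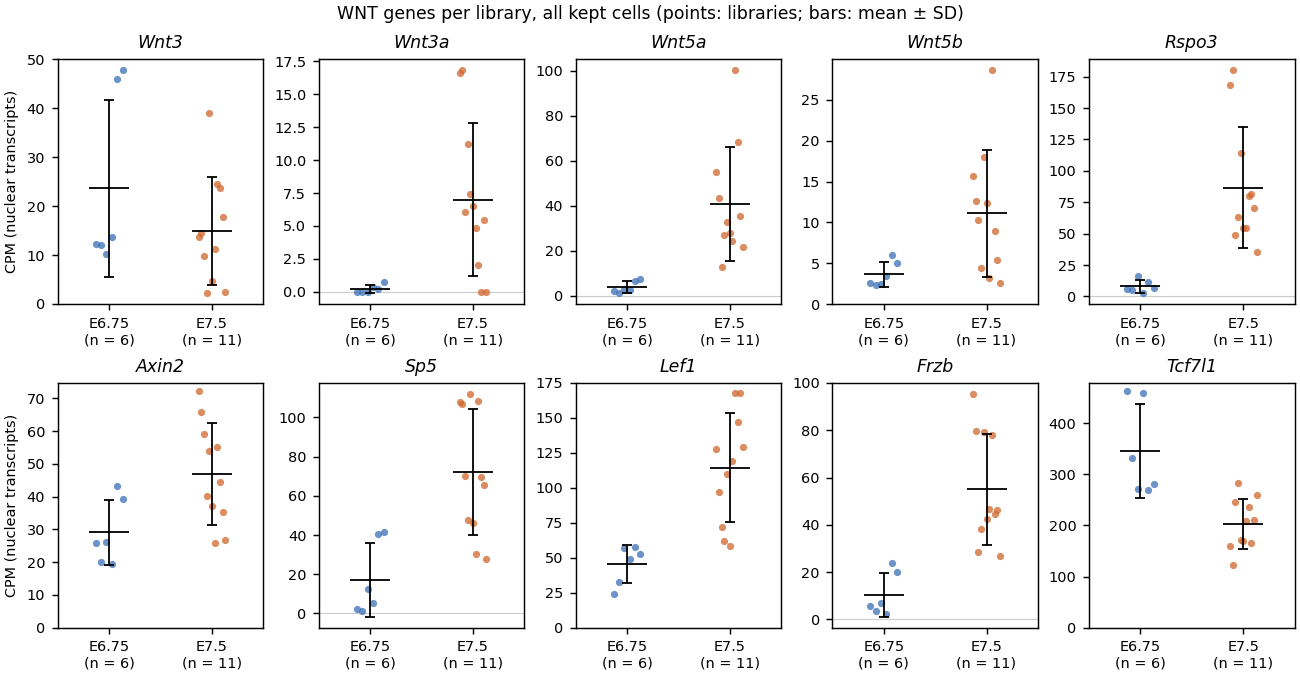
Level of each of the 10 genes in CPM of nuclear transcripts (vertical axes, 1 scale per gene) in 6 E6.75 and 11 E7.5 libraries; points are libraries, bars the mean ± SD. Wnt5a, Rspo3, Lef1 and Frzb do not overlap between stages, the 2 highest E6.75 points of Wnt3, Sp5 and Frzb are libraries 2_13 and 2_14, and 10 E7.5 points of Tcf7l1 lie below all of E6.75.

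Marker lists moved with stage too, as ranges of summed levels over the libraries show. Epiblast and ectoderm markers (6) ran from 1696 to 2549 CPM at E6.75 and from 314 to 1220 CPM at E7.5, the only list of 8 whose ranges did not overlap. Nascent mesoderm markers (7) ran from 58.3 to 329 and from 199 to 967 CPM, lateral and extraembryonic mesoderm markers (6) from 14.3 to 96.3 and from 41.8 to 757 CPM, and blood and endothelium markers (6) from 12.1 to 70.5 and from 29.2 to 422.5 CPM. Visceral endoderm markers (10) ran from 136 to 909.7 and from 2.05 to 357.9 CPM, and node and notochord markers (6) from 1.75 to 19.8 and from 4.45 to 139 CPM. Definitive endoderm markers (6) ran from 454 to 592 and from 270.3 to 1538 CPM, and extraembryonic ectoderm markers (6) from 9.32 to 86.01 and from 6.14 to 139.6 CPM. Their part in the stage differences of the WNT genes was not tested.

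The share of cells with a transcript showed the same genes cell by cell. With each cell thinned to 2000 transcripts, the mean share of cells per library with Rspo3 was 1.10% ± 1.01 (SD) over the 6 libraries of E6.75 and 12.8% ± 5.05 over the 11 of E7.5. For Sp5 the thinned shares were 1.78% ± 1.55 and 12.9% ± 7.82, for Frzb 1.79% ± 2.23 and 10.2% ± 7.14, and for Wnt5a 0.747% ± 0.944 and 6.24% ± 5.11. Lef1 was found in 8.06% ± 3.74 and 14.8% ± 4.68 of thinned cells, and Tcf7l1 in 44.7% ± 7.94 and 30.4% ± 7.30. Unthinned, the shares were 12.1% and 54.7% for Rspo3, 15.7% and 45.2% for Sp5, 17.0% and 42.1% for Frzb, 11.5% and 38.9% for Wnt5a, 60.8% and 67.5% for Lef1, and 91.5% and 83.0% for Tcf7l1. Axin2, Wnt5b and Wnt3 gave thinned shares of 5.09% and 6.80%, 0.896% and 3.09%, and 3.25% and 3.74%, and no order is read from them. All of these shares were low, with few thinned cells holding a transcript, as were the thinned E6.75 shares of Rspo3, Sp5, Frzb and Wnt5a. Unthinned, Axin2, Wnt5b and Wnt3 were found in 42.4% and 51.5%, 13.6% and 20.8%, and 29.7% and 23.2%.

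Wnt3a was found in no thinned E6.75 cell, and unthinned in 0.896% ± 1.23 of cells at E6.75 and 14.2% ± 9.89 at E7.5. For free RNA, the 13 E6.75 cells marked as extraembryonic ectoderm (median depth 32450 transcripts) give a comparison, although 0 of 13 allows a share of up to 23.1%: Wnt3, Wnt3a, Wnt5a, Wnt5b, Rspo3 and Frzb were found in 0 of them, unthinned. The 28 cells marked as visceral endoderm (median depth 22518) held Wnt3a and Wnt5b in 0, which allows up to 10.7%. They held Rspo3 in 32.1%, with an exact binomial 95% interval of 15.9 to 52.4% that covers counting error only, and Frzb in 32.1%. They held Sp5 in 7 and Wnt5a in 5 of the 28 cells. The unthinned shares of Rspo3, Frzb, Sp5 and Wnt5a in all kept E6.75 cells lay below those in these visceral endoderm-marked cells. Such cells may express these genes themselves, so this comparison cannot tell expression from free RNA. Neither is read from those shares.

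Cells were then classed by detection of 3 genes: T (Brachyury), which marks the streak and its early products, Mesp1, a factor of nascent mesoderm, and Foxa2, a factor of endoderm and axial mesoderm. Visceral endoderm-marked and extraembryonic ectoderm-marked cells were left out first. The classes were no T, Mesp1 or Foxa2 (292 cells at E6.75 and 114 at E7.5), T only (71 and 123), Mesp1 without Foxa2 (29 and 125, with or without T), Foxa2 without Mesp1 (89 and 48, with or without T), and both Mesp1 and Foxa2 (21 and 12). A class rests on 1 transcript, so deeper cells enter it more easily: the median depths, in that order, were 34272.5, 45474, 61036, 46373 and 60196 transcripts at E6.75 and 21323.5, 26188, 39912, 35806 and 34636.5 at E7.5. Sums of thinned cells left no member that could be tested by class, so the part of depth in the class differences was not tested. Sums of at least 3 cells of a class in a library were compared, with the library as a block in the fit.

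Marker lists were summed in each class. The summed level of 7 nascent mesoderm markers, Mesp1 not among them, was 149.7, 992.8 and 1093 CPM in the 3 Mesp1 sums of E6.75 and 463 to 1126 CPM in those of E7.5. In Foxa2 cells at E7.5, definitive endoderm markers summed to 743 to 3559 CPM (median 1388), where cells without the 3 genes had 220.8 to 986 and T-only cells 52.1 to 1481 CPM, with overlap. Node and notochord markers summed to 42.5 to 1228 CPM (median 433) in these Foxa2 cells, against medians of 8.32 and 14.2 CPM. In Foxa2 cells at E6.75 the definitive endoderm list, at 345 to 612 CPM, overlapped that of cells without the 3 genes, at 421 to 549 CPM. Their node and notochord list ran from 0 to 38.2 CPM (median 25.1), against medians of 4.06 in cells without the 3 genes and 3.64 in T-only cells, with Noto and Shh at 0 in all classes of that stage. Their epiblast and ectoderm markers were at 1535.5 to 2019 CPM, and their visceral endoderm markers at 0 to 557 CPM with a median of 157. The class is therefore called by its gene and not by a cell type. The part of these cell types in the differences given for Foxa2 cells was not tested.

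At E6.75, T-only cells had more Wnt3 and more Axin2 than cells with none of the 3 genes. Wnt3 ran from 17.2 through 33.3 to 61.1 CPM in T-only sums of 6 libraries and from 3.21 through 6.12 to 10.1 CPM in cells without the 3 genes. Axin2 ran from 28.5 through 42.9 to 69.3 CPM against 8.02 through 11.03 to 19.7 CPM. Neither gene's ranges overlapped, and T-only cells were higher in 6 of 6 libraries for both. The log2 differences were 2.32 (SE 0.38, edgeR adjusted p = 9.04e-05) for Wnt3 and 1.78 (SE 0.29, adjusted p = 6.99e-05) for Axin2, and without libraries 2_13 and 2_14 they were 2.38 (adjusted p = 0.00823) and 1.60 (adjusted p = 0.0483). These were 2 of the 9 members tested, where 0.366% of 8477 genes passed. Wnt3a was too low to enter the class tests.

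The other 7 did not pass at E6.75. Frzb was at 6.68 ± 3.58 CPM (SD, n = 6) in T-only cells and 2.14 ± 0.931 CPM in cells without the 3 genes, with a log2 difference of 1.37 (SE 0.55), and Wnt5b at 5.07 ± 1.75 and 2.11 ± 0.634 CPM, with 1.08 (SE 0.55). Both were higher in 6 of 6 libraries with no overlap of ranges, but rested on 22 and 17 transcripts in all T-only cells. Sp5 gave 1.75 (SE 0.70), Rspo3 0.84 (SE 0.75), Lef1 0.24 (SE 0.20) and Wnt5a -0.42 (SE 0.74), all with overlapping ranges. Tcf7l1 was lower in T-only cells of 6 of 6 libraries, at 306.0 ± 78.5 against 380.6 ± 89.6 CPM, a log2 difference of -0.32 (SE 0.13, edgeR adjusted p = 0.783). When all cells with T, whatever their Mesp1 and Foxa2, were set against all without T, Sp5 (3.45, adjusted p = 2.13e-07), Frzb (2.72, adjusted p = 7.38e-08) and Rspo3 (1.79, adjusted p = 0.00998) passed as well.

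At E7.5, T-only cells had more Sp5 and Axin2. Sp5, whose promoter is printed above with 2 motif matches, ran from 5.98 through 77.2 to 364.7 CPM in T-only sums of 10 libraries and from 0 through 11.9 to 53.3 CPM in cells without the 3 genes. The highest T-only value, in library 9, rests on 7 transcripts in 3 cells. Axin2, printed with none, ran from 21.1 through 56.8 to 95.7 CPM against 0 through 21.3 to 47.4 CPM. Ranges overlapped for both, but within a library T-only cells were higher in 9 of 9. The log2 differences were 2.23 (SE 0.38, edgeR adjusted p = 0.000382) for Sp5 and 1.45 (SE 0.32, adjusted p = 0.0157) for Axin2, 2 of 9 members where 0.224% of genes passed. The Axin2 call was lost without E7.5 library 1 (adjusted p = 0.0916), 2 (0.0696) or 4 (0.0772), and without libraries 6 to 12 together (0.180).

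Rspo3 was just outside the threshold at E7.5, at 81.7 ± 61.2 CPM (SD, n = 10) in T-only cells and 38.1 ± 22.3 CPM in cells without the 3 genes, higher in 7 of 9 libraries. Its log2 difference of 1.27 (SE 0.32) had an edgeR adjusted p of 0.0583, which was 0.00992 without library 7 and 0.0132 without library 10, and it also passed without E6.75 library 2_9 (0.0434) or 2_14 (0.0337). Lef1 (0.70, SE 0.21), Frzb (0.94, SE 0.34), Wnt5b (1.18, SE 0.56), Wnt3 (0.61, SE 0.68), Wnt5a (0.14, SE 0.40) and Tcf7l1 (-0.36, SE 0.14) did not pass. With classes set at 2 transcripts Rspo3 (1.58, adjusted p = 0.00696), Lef1 (1.033, adjusted p = 0.00696) and Frzb (1.41, adjusted p = 0.0464) passed. Against all cells without T, all cells with T were higher at E7.5 in Rspo3 (1.61, adjusted p = 1.34e-05), Lef1 (1.39, adjusted p = 2.36e-06), Frzb (1.76, adjusted p = 1.72e-06) and Wnt5a (1.04, adjusted p = 0.0333). The summed lateral and extraembryonic mesoderm markers had a median of 324 CPM in cells without the 3 genes and 177 CPM in T-only cells at E7.5, and their part was not tested.

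Wnt3 was not called at E7.5 where it was at E6.75, but the difference of the differences, -1.71 (SE 0.85), had an unadjusted p of 0.0492 and an edgeR adjusted p of 1. A change of the T-only difference between stages passed for 0 of the 9 members and 0 of the 8477 genes, a background of 0%. By edgeR 361 genes had an unadjusted p under 0.05, and by DESeq2, which also called 0, there were 371. Both counts are below a share of 0.05 of the 8477 genes, which chance alone would give. Wnt3a, not tested by class, was at 8.45 ± 8.33 CPM (SD, n = 10) in T-only cells, 7.50 ± 6.35 (n = 11) in Mesp1 cells, 14.8 ± 19.5 (n = 8) in Foxa2 cells and 0.295 ± 0.624 (n = 10) in cells without the 3 genes at E7.5. The ranges of T-only, Mesp1 and Foxa2 cells overlapped, and in cells without the 3 genes Wnt3a was at 0 in 8 of 10 libraries. Counted as cells, Wnt3a was found in 2 of 114 cells without the 3 genes, or 1.75% (exact binomial 95% interval 0.213 to 6.19%). Among Mesp1 cells it was found in 27 of 125, or 21.6% (14.7 to 29.8%). The median depths of these classes were 21323.5 and 39912 transcripts. Cells were pooled over libraries here, so the intervals cover counting error only and leave out the spread between libraries. No difference is read from them. At E6.75, Wnt3a was at 0 in all 6 sums of cells without the 3 genes and all 3 Mesp1 sums.

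**Figure D2:**
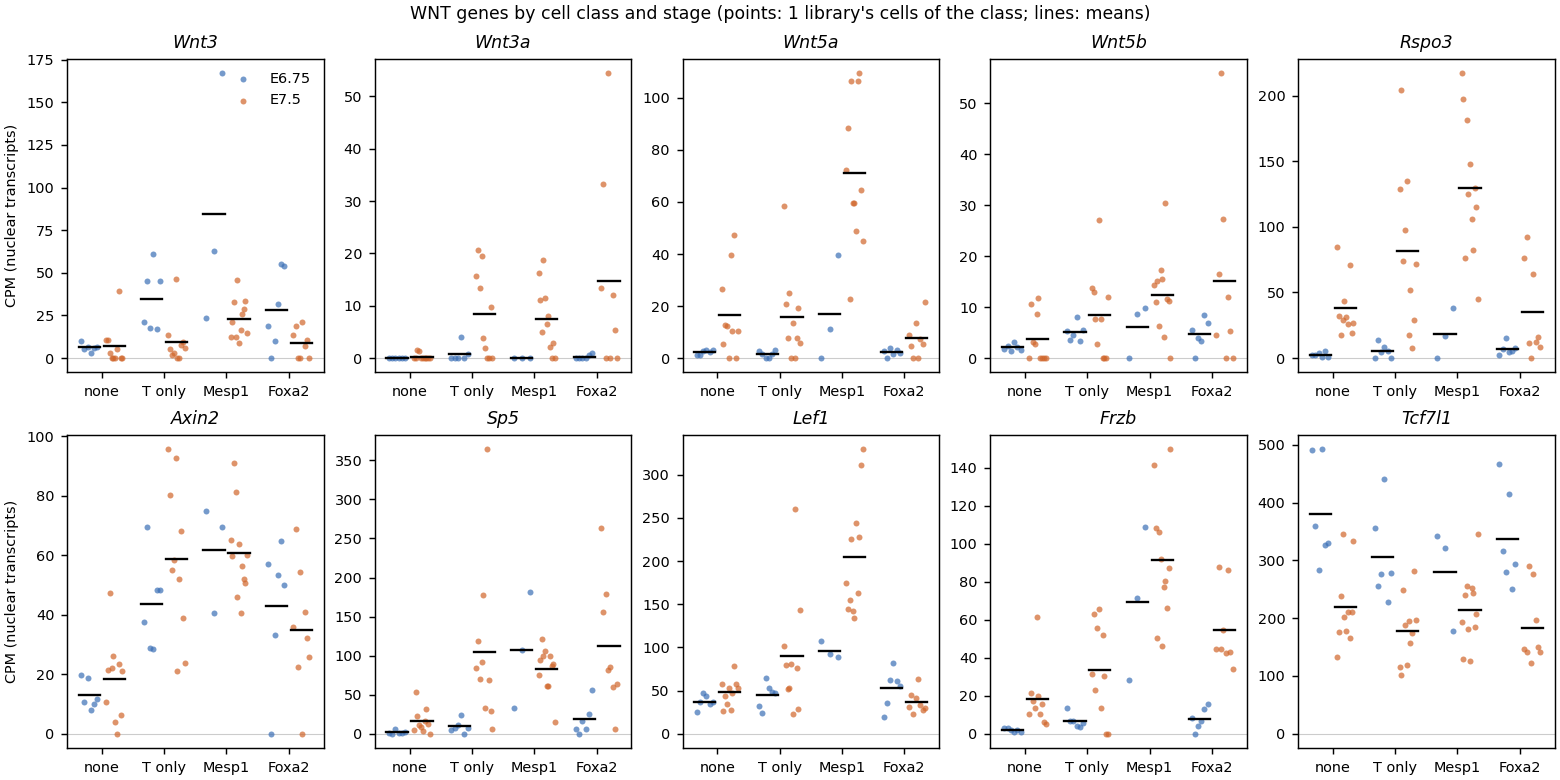
Level of each gene in CPM of nuclear transcripts (vertical axes) in the 4 classes, E6.75 in blue and E7.5 in orange; points are the cells of a class in 1 library, lines the means. Wnt3 and Axin2 are higher in T-only cells than in cells without T, Mesp1 or Foxa2 (none) at E6.75 with no overlap, Wnt5a and Lef1 have their highest means in Mesp1 cells of E7.5, and the points of Tcf7l1 overlap between classes.

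Mesp1 cells and Foxa2 cells were compared within libraries. At E6.75 only libraries 2_9, 2_13 and 2_14 held at least 3 Mesp1 cells (3, 15 and 11). Frzb was at 28.1, 71.3 and 109.1 CPM in their Mesp1 cells and at 4.01, 13.1 and 15.7 CPM in their Foxa2 cells. Sp5 was at 32.7, 106.9 and 181.8 CPM against 16.03, 25.5 and 55.8 CPM. Wnt5a was at 0, 11.1 and 39.7 CPM against 4.01, 3.27 and 1.96 CPM. Frzb thus separated the classes with no overlap, Sp5 was higher in Mesp1 cells of 3 of 3 libraries with some overlap, and Wnt5a was higher in 2 of 3.

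The log2 differences, Mesp1 minus Foxa2, were 2.84 for Frzb (SE 0.39, edgeR adjusted p = 2.01e-06), 1.97 for Sp5 (SE 0.39, adjusted p = 0.00182) and 2.50 for Wnt5a (SE 0.62, adjusted p = 0.0222). These were 3 of 9 members where 1% of genes (85 of 8477) passed. The calls of Sp5 and Wnt5a were lost without library 2_13 (adjusted p = 0.0747 and 0.0794) or 2_14 (0.0665 and 1), and by DESeq2 (0.241 and 0.153). Frzb was at 3.08 (adjusted p = 0.000664) without 2_13 and 2.66 (adjusted p = 0.00486) without 2_14. Wnt5a was at 2.91 and 1.24, and Sp5 at 1.85 and 2.03, in the same order. Lef1, at 107.6, 92.2 and 89.3 CPM against 62.1, 60.8 and 54.8 CPM, did not overlap between classes yet did not pass, with 0.71 (SE 0.23, adjusted p = 0.197). Wnt3 (1.27, SE 0.39), Rspo3 (1.49, SE 0.61), Axin2 (0.24, SE 0.34), Wnt5b (0.34, SE 0.63) and Tcf7l1 (-0.0054, SE 0.18) did not pass. With no cells left out before classing, Wnt3 (1.43, adjusted p = 0.034) and Lef1 (0.90, adjusted p = 0.0216) passed too, and Lef1 did so with classes set at 2 transcripts (1.09, adjusted p = 0.0234).

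At E7.5, 8 libraries held both classes, and Wnt5a, Lef1 and Rspo3 were higher in Mesp1 cells of 8 of 8. Over all sums of a class, Wnt5a ran from 22.8 through 64.6 to 109.4 CPM in Mesp1 cells and from 0 through 6.29 to 21.4 CPM in Foxa2 cells. Lef1 ran from 134.4 through 175.2 to 329.9 CPM against 22.3 through 32.4 to 63.7 CPM. Rspo3 ran from 44.99 through 124.8 to 216.9 CPM against 0 through 14.1 to 92.4 CPM. Wnt5a and Lef1 separated the classes in these libraries, and Rspo3 overlapped between libraries but not within any of the 8.

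Their log2 differences were 3.05 for Wnt5a (SE 0.45, edgeR adjusted p = 6.45e-07), 2.34 for Lef1 (SE 0.22, adjusted p = 2.26e-12) and 2.00 for Rspo3 (SE 0.33, adjusted p = 1.13e-05). These were 3 of 9 members where 9.22% of genes passed. Sp5 was at 82.8 ± 28.9 CPM (SD, n = 11) in Mesp1 cells and 111.8 ± 82.3 CPM (n = 8) in Foxa2 cells, higher in Mesp1 cells of 4 libraries and lower in 4, with a log2 difference of -0.63 (SE 0.29, edgeR adjusted p = 0.196). With classes set at 2 transcripts it passed, lower in Mesp1 cells (-1.10, adjusted p = 0.0475). Frzb was at 91.5 ± 33.4 against 54.7 ± 20.7 CPM, higher in 7 of 8 libraries, with 0.53 (SE 0.27, adjusted p = 0.254; 0.87 and 0.0457 without library 7). Wnt3 (0.61, SE 0.57), Axin2 (0.47, SE 0.31), Wnt5b (-0.11, SE 0.49) and Tcf7l1 (0.18, SE 0.16) did not pass.

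**Figure D3:**
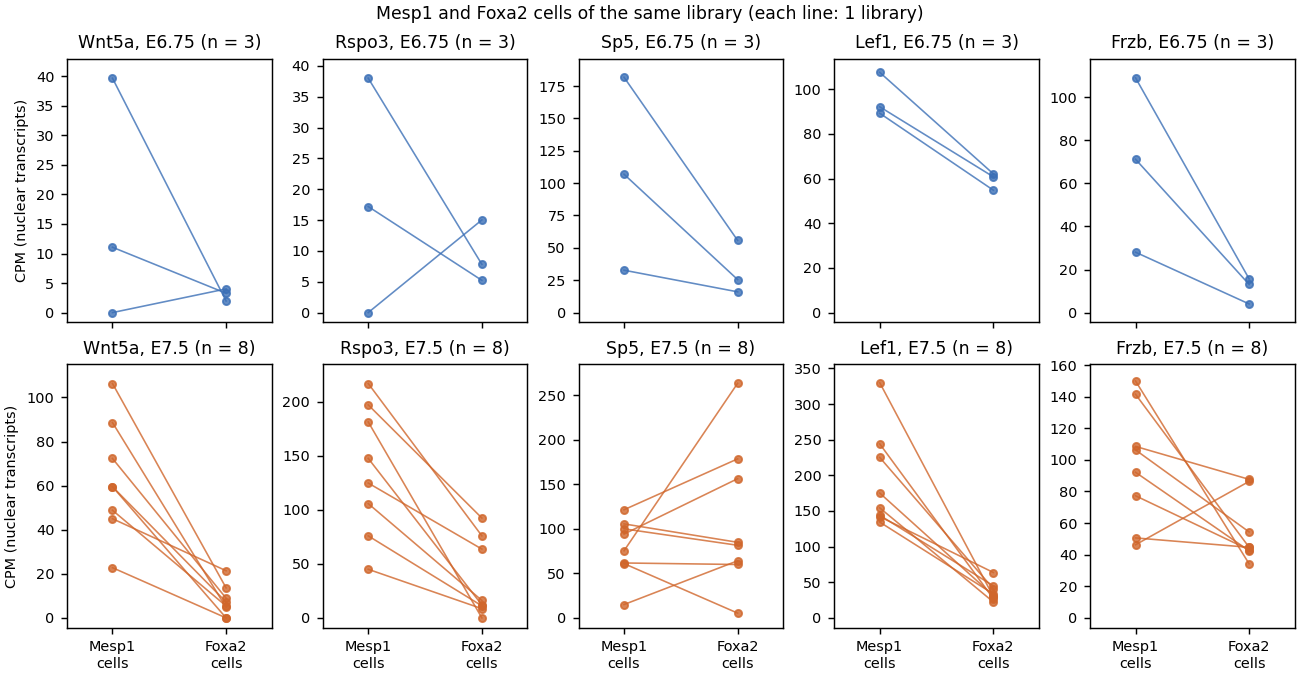
Level in CPM of nuclear transcripts (vertical axes) of 5 genes in Mesp1 and Foxa2 cells of the same library, 3 libraries at E6.75 (top) and 8 at E7.5 (bottom); each line is 1 library. Frzb falls from Mesp1 to Foxa2 cells in 3 of 3 lines at E6.75, Wnt5a, Rspo3 and Lef1 in 8 of 8 at E7.5, and the E7.5 lines of Sp5 cross.

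The gap between Mesp1 and Foxa2 cells itself differed between stages for 3 members, Sp5, Frzb and Lef1, where 0.354% of genes passed. E7.5 minus E6.75, the difference of log2 differences was -2.60 for Sp5 (SE 0.49, edgeR adjusted p = 0.00314), -2.32 for Frzb (SE 0.48, adjusted p = 0.00818) and 1.63 for Lef1 (SE 0.33, adjusted p = 0.00751). In levels over the libraries that held both classes, 3 at E6.75 and 8 at E7.5, mean Sp5 was 107.2 CPM in Mesp1 and 32.4 CPM in Foxa2 cells at E6.75, and 79.3 and 111.8 CPM at E7.5. Mean Frzb was 69.5 and 10.9 CPM in the earlier stage and 96.6 and 54.7 CPM in the later, and mean Lef1 96.3 and 59.2 CPM, then 193.7 and 36.7 CPM. Without library 2_13 or 2_14 the adjusted p was 0.0391 or 0.0274 for Sp5, 0.0393 or 0.103 for Frzb, whose call was thus lost without 2_14, and 0.0462 or 0.0308 for Lef1. The Sp5 call was lost by DESeq2 (adjusted p = 0.156) and the Lef1 call with classes set at 2 transcripts (0.151) and without the replicate block (0.0634).

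**Figure D4:**
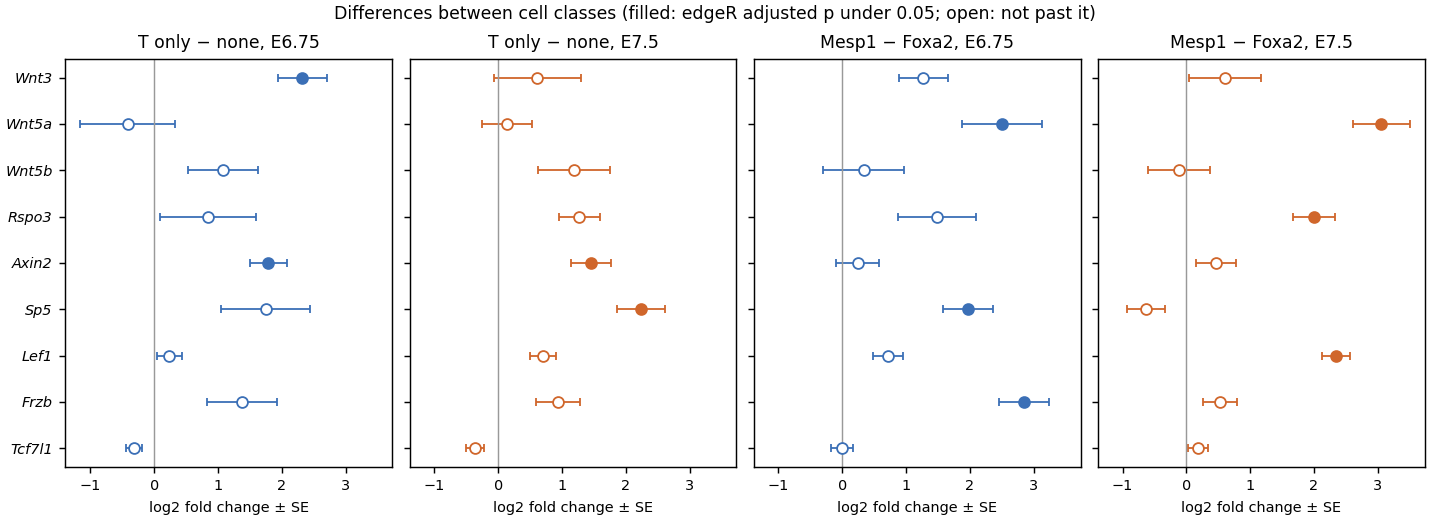
Fitted log2 fold change ± SE (horizontal axes) of 9 genes in the 4 class comparisons, with 0 marked by a line; filled points passed an edgeR adjusted p of 0.05. Filled points are Wnt3 and Axin2, then Axin2 and Sp5, for T-only cells at E6.75 and E7.5, and Wnt5a, Sp5 and Frzb, then Wnt5a, Rspo3 and Lef1, for Mesp1 against Foxa2 cells.

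Mesp1 and T-only cells are set side by side with no test of their difference. Mesp1 cells of E7.5 had mean levels of 71.2 ± 28.5 CPM (SD, n = 11) for Wnt5a, 129.3 ± 53.1 for Rspo3, 60.6 ± 14.8 for Axin2 and 23.0 ± 11.5 for Wnt3. T-only cells were at 15.8 ± 17.3 (n = 10), 81.7 ± 61.2, 58.6 ± 26.1 and 9.33 ± 13.7 CPM. Wnt5a was higher in Mesp1 than in T-only cells in 10 of 10 libraries, Frzb in 10 of 10, Lef1 in 9, Wnt3 in 8, Rspo3, Wnt5b and Tcf7l1 in 7 and Axin2 in 6. Sp5 was higher in 6 and lower in 4, with means of 84.96 CPM in Mesp1 and 104.3 CPM in T-only cells over these libraries. That T-only mean includes 364.7 CPM in library 9, from 7 transcripts in 3 cells. Pooled over all sums of a class, Sp5 was at 87.9 CPM in Mesp1 and 86.9 CPM in T-only cells. Wnt3a was higher in 4, lower in 4 and equal in 2 (7.43 against 8.45 CPM). Cells with both Mesp1 and Foxa2 were too few for the fit. In libraries 2_13 and 2_14 (13 and 6 cells) they had Wnt3 at 117.2 and 56.2 CPM, Sp5 at 103.4 and 102.4 CPM and Lef1 at 88.2 and 115.6 CPM. In E7.5 libraries 1 and 2 (4 and 5 cells) they had Rspo3 at 262.8 and 391.5 CPM and Lef1 at 168.5 and 169.7 CPM. There Sp5, at 303.3 and 58.7 CPM, Axin2, at 195.5 and 71.8 CPM, and Wnt5b, at 74.1 and 13.1 CPM, differed widely between the libraries. For Wnt5a, the order over E7.5 classes was Mesp1, no T, Mesp1 or Foxa2 (16.4 ± 16.1 CPM), T only and Foxa2 (7.66 ± 7.14 CPM). Its ranges overlapped for each pair of these classes but Mesp1 and Foxa2. Mesp1 sums began at 22.8 CPM, while cells without the 3 genes reached 47.1 CPM and T-only cells 58.6 CPM. For Lef1 the order was Mesp1, T only (89.8 ± 69.6 CPM), no T, Mesp1 or Foxa2 (48.0 ± 15.8 CPM) and Foxa2 (36.7 ± 13.1 CPM), and the ranges of each pair of neighbours overlapped.

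Over the 9 members tested by class, the median log2 difference was 1.08 and 0.94 for T-only cells at E6.75 and E7.5, and 1.27 and 0.53 for Mesp1 minus Foxa2 cells. Over all 8477 genes, which passed the same filter on low counts as the members, these medians were 2.8e-17, 0.0011, 0.0023 and 0.03. The members were chosen by name with earlier results of these data known, so their medians are a description only.

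The members could also be read against each other. Over the 60 library-by-class sums of 17 libraries, with each library's mean subtracted, Pearson's r of log2 CPM was 0.68 for Sp5 with Frzb, 0.68 for Rspo3 with Lef1, 0.63 for Wnt5a with Rspo3 and with Lef1, and 0.61 for Wnt3 with Axin2. Wnt5a and Sp5 had 0.21. Tcf7l1 ran from -0.31 with Axin2 to 0.06 with Wnt5a. These sums share libraries, depth and classes, are not independent, and are given as a description.

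**Figure D5:**
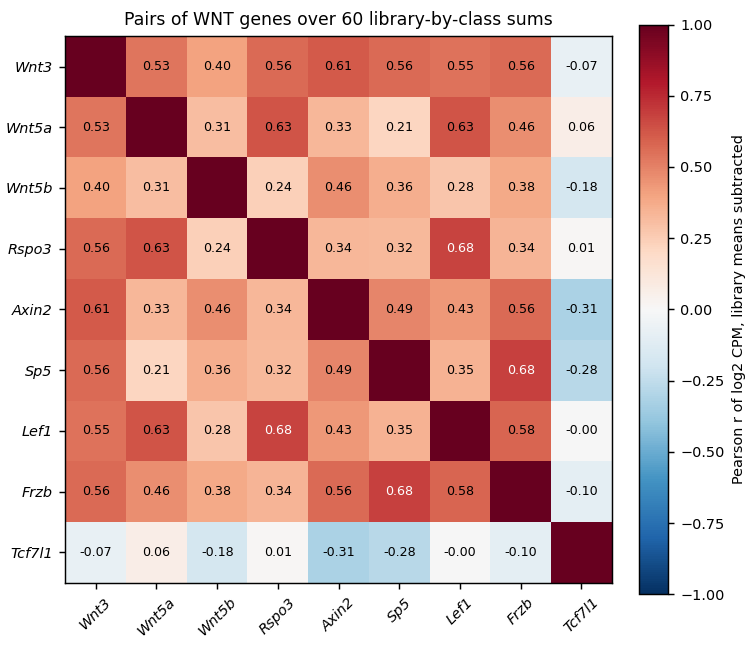
Pearson's r of log2 CPM for each pair of 9 genes over 60 library-by-class sums, library means subtracted; red is positive, blue negative, on a scale of -1 to 1. Sp5 and Frzb, and Rspo3 and Lef1, both at 0.68, are the highest pairs, and the row of Tcf7l1 lies between -0.31 and 0.06.

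By the same measure, the genes most like each member were found among all genes in the fit. Wnt3 was most like Evx1 (0.81) and Prtg (0.81), and then Cdc42ep4 (0.74). Axin2 was most like Fst (0.80), Evx1 (0.72) and Ier3ip1 (0.70). Evx1 is a homeobox gene of the streak and Fst encodes follistatin, which binds activin. Sp5 was most like Mixl1 (0.73), a homeobox gene of the streak, Cdc42ep4 (0.68) and Frzb (0.68), and Frzb most like H2afy (0.73), Mixl1 (0.72) and Peg3 (0.70). Wnt5a was most like Zfp516 (0.83), Col13a1 (0.80) and Foxc2 (0.79), Rspo3 most like Igfbp4 (0.80), Col13a1 (0.79) and Pdgfra (0.77), and Lef1 most like Rimbp2 (0.86), Wnt2 (0.85) and Lefty2 (0.83). Foxc2 and Pdgfra are genes of mesoderm, and Lefty2 encodes a NODAL antagonist. For Wnt5b the values were lower, with Wwtr1 at 0.70, Ccdc34 at 0.66 and Ift74 at 0.66, as for Tcf7l1, with Auts2 at 0.66, Ube2k at 0.61 and Msh6 at 0.59.

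The wider pathway was read from a list of 82 further WNT genes, 80 of which had a row. Between stages 51 could be tested, and 25 were higher and 6 lower at E7.5, 31 in all where 38.8% of all genes passed, with a median log2 difference of 0.30 against 0.03 over all genes. Largest among those higher were Tbx6 at 5.51 (SE 0.46, edgeR adjusted p = 1.19e-08), a mesoderm factor, and Cdx1 at 4.84 (SE 0.76, adjusted p = 4.13e-05), a posterior homeobox gene. Notum (3.80), which strips the lipid from WNT ligands, the ligand Wnt2 (3.34) and the feedback inhibitor Nkd1 (2.82) followed. Lower at E7.5 were the receptors Lrp5 (-1.31) and Lgr4 (-1.12), the corepressor Tle4 (-0.91), the kinase Gsk3a (-0.69) and the cyclin Ccnd1 (-0.67).

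In the class tests 46 of the list were tested. At E6.75, where 0.366% of all genes passed, 1 was called in T-only cells, Sp8 (log2 difference 1.72, SE 0.42, edgeR adjusted p = 0.0404), a relative of Sp5, at 18.6 ± 5.33 against 5.46 ± 2.74 CPM (SD, n = 6). At E7.5, where 0.224% of all genes passed, there were 3 called, all higher in T-only cells: Cdx1 (3.33), the receptor Fzd10 (2.15) and Nkd1 (1.502). Medians of the log2 difference over the list were 0.03 at E6.75 and -0.0074 at E7.5, against 2.8e-17 and 0.0011 over all genes.

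Between Mesp1 and Foxa2 cells of E6.75, where 85 of 8477 genes passed, 1 of the list was called, Wnt2, with 15 transcripts in Mesp1 cells and 0 in all 6 Foxa2 sums; against a floor of 3 transcripts over the Foxa2 sums it was at least 14.3-fold higher. At E7.5, 10 were called, where 9.22% of all genes passed. Higher in Mesp1 cells were Wnt2 (5.17), the receptor Fzd4 (2.64), Tbx6 (1.63), the ligand carrier Wls (0.96) and Tle3 (0.66). Higher in Foxa2 cells were the antagonist Cer1 (-3.42, 25.3 ± 35.5 against 195.1 ± 121.7 CPM), the receptors Fzd5 (-2.72), Fzd8 (-2.31) and Lgr5 (-2.11), and Porcn (-1.87), which attaches the lipid to WNT ligands. The list's medians were -0.042 at E6.75, or -0.019 with genes at 0 in a class set at their bound, and -0.079 at E7.5, against 0.0023 and 0.03 over all genes. Tbx6 and Cer1 also stand in the marker lists, and no gene of the list was called for a change of a class difference between stages.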

How the data were processed

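Each library's table held, per gene and cell barcode, expected counts that the authors deposited: UMI numbers corrected for collisions among 4096 possible UMIs. Reads were processed with bcl2fastq 2.17.1.14 and BWA 0.6.2-r126, per the submitters' processing notes; genome build, annotation and use of strand are not given in the sources used here. The members, gene lists, classes and tests were chosen with earlier results of these data known. Cells with at least 2000 nuclear transcripts among the 96 barcodes in use were kept (543 at E6.75, 429 at E7.5), and no doublet caller was run. Cells with at least 0.5% of transcripts from 10 visceral endoderm markers, or with at least 3 of 6 extraembryonic ectoderm markers, were left out of the classes.

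Expected counts were rounded to whole numbers per gene and cell, then summed per library (at least 10 kept cells), or per library and class (at least 3 cells). The sums were tested with edgeR 4.0.16 in R 4.3.3 (quasi-likelihood F test, TMM, filterByExpr, library as a block in the class fit, both stages in 1 fit). T, Mesp1 and Foxa2 were left out of the class tests. P-values were Benjamini-Hochberg adjusted over all genes tested, with a threshold of 0.05; an SE is the size of the fold change divided by the square root of F. Only the stage and T-only comparisons were tried on simulated sums, with the same spread for all genes and libraries that differed in depth alone. Those of Mesp1 with Foxa2 cells, and changes of a class difference between stages, were not tried so. The members were named in every comparison; of the 82 further WNT genes, at most the 5 of largest change past the threshold in each direction were named, and like patterns were the 3 genes of highest correlation. Gene positions are from GENCODE on GRCm38, promoter sequences from RefSeq. Alternatives were DESeq2 1.42.0, no count filter, uncorrected UMIs, thinning to 2000 transcripts, other cell and class rules, no replicate block, stages fitted apart, and libraries left out. Intervals and floors of 3 counts cover counting error only.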

Additional observations from a re-analysis of the deposited data

Results flagged for a closer look

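Levels of the members were screened for a library far from the rest of its group in 69 groups of 4 to 10 libraries, and 9 groups held one. For normally spread values chance gives about 1 in 20 groups, but levels from few transcripts need not be spread so. Of the 9, 5 were T-only sums of E7.5. Library 6 stood above the others there in Wnt3 (46.3 CPM) and Wnt5b (27.0 CPM), library 9 in Sp5 (364.7 CPM) and Lef1 (260.5 CPM), and library 1 in Wnt5a (58.6 CPM). In E7.5 cells without T, Mesp1 or Foxa2, library 10 stood apart in Wnt3 (39.3 CPM) and library 6 in Frzb (61.2 CPM). In T-only cells of E6.75, library 1_10 stood apart in Frzb (13.4 CPM) and library 2_12 in Wnt3a (4.07 CPM). All of them were the highest of their group. In the order given they rest on 12, 7, 7, 5, 30, 5, 7, 5 and 1 transcripts, those of library 9 from 3 cells.

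The difference between Mesp1 and Foxa2 cells itself differed between stages by a test of the interaction in edgeR for Sp5 (-2.60 on the log2 scale, E7.5 minus E6.75), Frzb (-2.32) and Lef1 (1.63).

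Transcripts of the 10 members were also counted outside the kept cells. In 756 barcodes under the minimum of 2000 they made up 632 CPM of 303790 transcripts. In barcode columns not in use they made up 768 CPM of 200511 transcripts, and in kept cells 550.3 CPM of 37289580.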

How the results depend on the processing

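Of the 22 member results that were called, 0 changed sign. The call was kept in 364 of 372 values with 1 library left out and in 183 of 190 under other alternatives. Of the 42 not called, 6 and 19 values passed, and 19 and 17 changed sign. The 372 include class results refitted without a library of the other stage or one with no sum of the class. Refits in which a member was not tested do not count among them. The share kept is therefore no measure of how firm a call is. For Mesp1 against Foxa2 at E6.75 only 2_9, 2_13 and 2_14 held Mesp1 sums, and Sp5 and Wnt5a lost their calls without 2_13 or 2_14. No paired analysis was possible because the stages' libraries share no replicate number; within libraries the classes were paired by the library itself, and with no replicate block the counts of called genes were 18 (T-only, E6.75), 12 (T-only, E7.5), 55 (Mesp1 against Foxa2, E6.75) and 9 (its change between stages), where the block gave 31, 19, 85 and 30. In the same order of 4, leaving out 1 library gave 15 to 36 (lowest without 1_11; 16 without 2_14 and 18 without 2_12), 13 to 40 (40 without E7.5 library 10), 29 to 91 (29 without 2_14, 38 without 2_13) and 13 to 37 (13 without 2_9). DESeq2 gave 19 (T-only, E6.75) and 44 (Mesp1 against Foxa2, E6.75). Without a count filter there were 48 and 50 (T-only) and 47 (change of the Mesp1 difference). Thinning to 2000 transcripts, with fewer genes tested, gave 604 genes between stages, 562 of them among the 3879 called unthinned. It gave 0 and 6 for T-only cells, 1 and 7 for Mesp1 against Foxa2 (782 at E7.5 unthinned) and 1 for its change. Of these, 2 of the 6, 6 of the 7 and the 1 for the change were also called unthinned. Among the members only Rspo3, Lef1 and Tcf7l1 could then be tested between stages, and all 3 passed. With no cells left out, 171 were called between Mesp1 and Foxa2 cells at E6.75. Classes set at 2 transcripts gave 68 (T-only, E7.5), 152 and 11 (Mesp1 against Foxa2 at E6.75, and its change). All T cells against all without T gave 183 and 254, and 37 for the change between stages. Stages fitted alone gave 61 (T-only, E6.75) and 364 (Mesp1 against Foxa2, E7.5), and E6.75 prefix 2 alone gave 14 (T-only, E6.75). Among choices made after seeing the data, leaving out 2_13 and 2_14 gave 16 and 30 (T-only, E6.75 and E7.5), and leaving out E7.5 libraries 6 to 12 gave 33 (T-only, E7.5) and 1 (its change). Mesp1 against Foxa2 at E6.75 was not run without both 2_13 and 2_14, since 1 library with Mesp1 cells would be left. Except where stated, the cause was not tested.

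Sign changes, all of log2 differences that were not called, were these. For the T-only difference, E7.5 minus E6.75: Sp5 -0.35 by DESeq2, -1.02 with all T cells and -0.37 without 2_13 and 2_14; Rspo3 -0.12 at 2 transcripts, -0.18 with all T cells and -0.20 without 2_13 and 2_14. Tcf7l1 gave 0.0042 with no filter, 0.033 at 2 transcripts and 0.086 with all T cells, and Wnt5a -0.38 with all T cells (1.42 at E6.75 itself). For Mesp1 minus Foxa2: Tcf7l1 at E6.75 gave 0.0015 with no filter, 0.067 with no cells left out and 0.018 with prefix 2 alone, Wnt5b at E7.5 0.14 with no replicate block, and the change of Rspo3 -0.12 at 2 transcripts. Wnt3 between stages gave 0.13 without 2_13 and 2_14. With 1 library left out, T-only values ran from -0.040 to 1.139 (Rspo3, E6.75), -0.25 to 0.46 (Wnt5a, E7.5) and -0.014 to 1.27 (Wnt3, E7.5), and their changes between stages from -0.13 to 0.54 (Wnt5b), -0.14 to 0.066 (Tcf7l1) and -0.55 to 0.12 (Axin2). Mesp1 minus Foxa2 ran from -0.25 to 0.28 (Tcf7l1, E6.75) and -0.34 to 0.049 (Wnt5b, E7.5), and its changes from -0.16 to 1.43 (Rspo3), -0.24 to 0.46 (Axin2) and -0.12 to 0.44 (Tcf7l1).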
